A study of Mus musculus with 10 samples.

Results

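Cytosolic ribosomal protein genes encode the protein components of the cytosolic ribosome. They were taken as every gene symbol beginning with Rpl or Rps and a digit, together with Rplp0, Rplp1, Rplp2 and Rpsa, without the S6 kinases (Rps6k) and without symbols marked as pseudogenes. This rule, which uses names and no measured value, found 89 of the 25579 genes listed in each library, 54 named for the large subunit or its stalk (Rpl) and 35 for the small subunit (Rps). A minimum of 1 TPM (a read count corrected for gene length and for the depth of sequencing) in at least 1 library was passed by 86 of them. Of the other 3 members, Rpl26 and Rps27rt were listed at 0 in all 8 libraries, and Rpl10l was listed at 0 in 6 and did not exceed 0.072 TPM.

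RNA sequencing was carried out on sorted bone marrow pro-B cells of C57BL/6 mice of 4 genotypes, with 2 libraries per genotype. Pax5+/+ cells carried both wild-type alleles of Pax5, the transcription factor that commits lymphoid progenitors to the B cell lineage. Pax5+/- cells had lost 1 allele. Pax5R31Q/- cells carried, over a null allele, an allele made by CRISPR in mixed C57BL/6 and CBA zygotes that encodes the Pax5-R31Q protein, changed in the DNA-binding paired domain. Pax5-/- cells came from Pax5fl/fl mice in which the Vav-Cre transgene, active throughout the hematopoietic system, deletes the gene, and the labels call them progenitors. The age of the mice and the gate for the Pax5-/- cells are not given in the sources used here, and no source says whether the libraries of a genotype came from separate mice, so p-values measure only the spread between these libraries. Pax5 peaks came from 2 further libraries of pro-B cells cultured with IL-7, 1 with wild-type Pax5 and Rag2-/- and 1 Pax5R31Q/-.

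Each ribosome contains a small subunit, which reads the mRNA, and a large subunit, which joins amino acids. Ribosomal protein mRNAs are among the most abundant mRNAs of dividing cells, and most begin with a 5′ terminal oligopyrimidine (TOP) tract, a C followed by further pyrimidines, through which mTORC1 and the RNA-binding protein Larp1 control their translation. The Myc family of transcription factors is known to promote the synthesis of ribosomes. Many of these genes also have processed pseudogenes, near-identical copies scattered through the genome.

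The start sites of 7 genes are shown because they illustrate the TOP tract, which most members share by textbook knowledge, beside members that lack one at the annotated start. Each line gives 60 bases, 40 before the start of the RefSeq transcript and 20 from it on, in build GRCm38.p6. Capitals mark a C followed by at least 4 pyrimidines, from the first such C within 5 bases of the start, and the unbroken stretch can begin further upstream, as it does in Rpl35.
Rpl35, chr2:39005112-39005171, minus strand: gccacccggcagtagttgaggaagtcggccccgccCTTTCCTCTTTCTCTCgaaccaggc
Rpl15, chr14:18270967-18271026, minus strand: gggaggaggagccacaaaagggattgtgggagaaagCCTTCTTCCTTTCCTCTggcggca
Rps6, chr4:86857348-86857407, minus strand: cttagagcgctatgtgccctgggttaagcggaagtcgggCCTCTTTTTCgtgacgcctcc
Rplp2, chr7:141447611-141447670, plus strand: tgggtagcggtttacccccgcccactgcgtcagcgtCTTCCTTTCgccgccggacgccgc
Rpl10, chrX:74270776-74270835, plus strand: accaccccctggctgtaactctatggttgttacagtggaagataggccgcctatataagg
Rpl3l, chr17:24727786-24727845, plus strand: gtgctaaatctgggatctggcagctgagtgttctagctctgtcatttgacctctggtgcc
Rps19bp1, chr15:80264287-80264346, minus strand: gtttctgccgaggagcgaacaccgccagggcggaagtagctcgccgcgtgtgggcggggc

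Promoter windows were matched for 65 of the 86 members tested. A C followed by at least 4 pyrimidines lay within 5 bases of the start in 29 of them (44.6%), against 20.2% of 9933 other genes tested and 18.3% of all 32851 windows. The start base itself was a C followed by at least 4 pyrimidines, often within a longer stretch, in 13 of 65 members and in 2.37% and 2.51% of the other sets. In the 300-base window from 250 before to 50 after the start, searched on both strands, GGGCGG (a site of Sp1) was found in 61.5% of members and 35.7% of all windows, and CCGGAAG (a site of Ets factors such as GABP) in 35.4% and 8.86%. The other genes tested held GGGCGG in 64.8% and CCGGAAG in 19.1%. AAGATGGC (Yy1) occurred in 7.69% of members and 2.75% of all windows, TATAAA (the TATA box) in 10.8% and 13.6%, and CACGTG (an E-box bound by Myc and its partners) in 7.69% and 7.15%. The other genes tested held AAGATGGC in 4.91%, TATAAA in 7.01% and CACGTG in 10.1%. These are matches of letters and no evidence of binding.

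The members were highly expressed as a group. Their mean over the 8 libraries had a median of 1340 TPM, against 22.4 TPM for the 13436 genes tested, and was at least 1000 TPM for 58 members, 100 to 1000 TPM for 20 and lower for 11. The highest Rpl gene was Rplp1, a protein of the ribosomal stalk, with a mean of 6474 TPM, and the highest Rps gene was Rps26, with 5836 TPM. Among genes tested, the lowest were Rpl39l (0.87 TPM) and Rps27 (6.83 TPM). Only uniquely mapping reads of 50 bases had been counted, and 0% of the 50-base windows of the Rps27 transcript lack a second exact copy in the genome. Rps27l, an intact paralog with 73.9% unique windows, stood at 144 to 249 TPM. Core members Rpl30, Rpl34 and Rpl26, with 21.1%, 36.3% and 21.1% unique windows, were listed at means of 6.96, 8.30 and 0 TPM. A low share did not always go with a low value: Rpl28 (0% unique windows) had a mean of 2381 TPM, Rps12 (1.92%) of 2909 TPM and Rps2 (20.9%) of 1474 TPM, and the part of repeated sequence in the low values was not tested. Across members, the median share of unique windows was 36.0%, and 53 of 86 were under 50%, a share of windows that 3.75% of all 13097 genes tested with a value fell below. Comparisons of level between genes carry this limit.

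Ribosomal protein mRNAs took up a larger share of the TPM total in both Pax5-/- libraries than in the other 6. Pax5+/+ cells had shares of 13.0 and 12.5%, Pax5+/- cells of 12.2 and 12.8%, and Pax5R31Q/- cells of 12.9 and 13.9%. In Pax5-/- cells it was 22.4% in replicate 1 and 16.1% in replicate 2, a mean of 19.2% ± 4.47 (SD, n = 2). The sums were not tested, since for groups of 2 the smallest two-sided p of the exact permutation test is 0.333. Both subunits contributed: the ratio of summed Rpl to summed Rps TPM was 1.14 to 1.17 in the other 6 libraries, and 1.12 and 1.13 in the Pax5-/- libraries. Counted as whole reads recovered from the TPM steps, which are not divided by gene length, members accounted for 3.87 to 4.60% of the reads on genes in the 6 libraries, and for 8.10 and 5.40% in the Pax5-/- libraries. In bulk RNA, a change in the cells that make up a sample cannot be told apart from a change of RNA per cell.

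**Figure D1:**
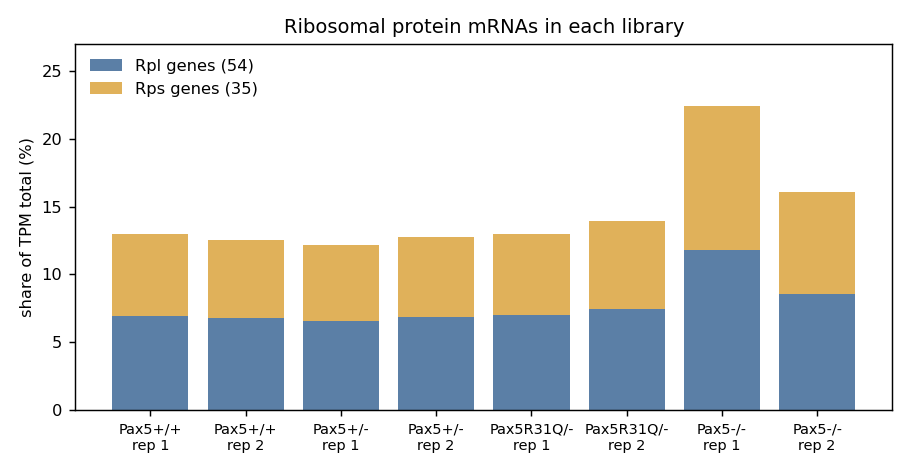
Share of the TPM total (%) taken by the 54 Rpl and 35 Rps genes in each of the 8 RNA-seq libraries, stacked from 0. The 6 libraries with a Pax5 allele lie between 12.2 and 13.9%, and the Pax5-/- libraries at 22.4 and 16.1%.

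Replicate 1 of the Pax5-/- libraries stood apart, and the main results on these cells are therefore also given without it. It was the shallowest library, with 21625407 recovered reads on genes against 29916566 to 34488454 in the other 7. Its 10 myeloid marker genes summed to 2241 TPM, against 371 TPM in replicate 2 and 416 to 1550 TPM in the other 6 libraries. Mpo, a granule enzyme of myeloid cells, was at 132 and 16.6 TPM in the 2 replicates. In Pax5-/- against Pax5+/+ cells, 2 of the 10, Ctsg and Csf1r, were higher and 0 lower (all genes, 16.2 and 19.7%). Without replicate 1, the differences of Ctsg and Csf1r were 3.31 and 0.85. The other genes of the list were then lower than in Pax5+/+ cells, and the median of the list was -0.55. Among the 82 members with a mean of at least 10 TPM, 8 differed more than 2-fold between the Pax5-/- replicates, against 1, 0 and 0 in the Pax5+/+, Pax5+/- and Pax5R31Q/- pairs. Other genes with a mean of at least 100 TPM did so in 2.78% for the Pax5-/- pair and in 0.354, 0.202 and 0.0506% for the other pairs. The part of depth and of myeloid RNA in this gap was not tested.

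The question of the first comparison was what complete loss of Pax5 changes. In Pax5-/- cells, 42 of 86 members passed the test as higher and 2 as lower than in Pax5+/+ cells (limma on log2(TPM + 1) over all genotypes, Benjamini-Hochberg adjusted p under 0.05). Over all genes tested, 16.2% were higher and 19.7% lower, 35.9% in all. The median difference of the members was 0.59 on the log2(TPM + 1) scale, with quartiles of 0.31 and 0.83, while the median over all genes was -0.11. The values of the groups did not overlap, with Pax5-/- higher, for 68 members (79.1%), a pattern that 27.2% of all genes showed, and with Pax5-/- lower for 3 members (3.49%; all genes, 36.4%). Both Pax5-/- libraries lay above all 6 others for 60 members (69.8%; all genes, 20.9%) and below them for 2, Rpl3l and Rpl29 (2.33%; all genes, 28.2%). The 42 were 25 Rpl and 17 Rps genes, and limma-voom on recovered reads called 54 higher, where it called 20.5% of all genes. The limma count fell to 1 of 89 with no filter on low TPM (all genes, 7.33%), to 1 with only these 2 genotypes in the fit (8.25%) and to 4 at an adjusted p under 0.01 (9.90%).

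Without replicate 1, 16 members were higher and 2 lower, where 17.1% and 15.1% of all genes were called, so that the share of members called higher (16 of 86) was near the background. The median difference then was 0.40, against 0.012 for all genes. Replicate 2 alone lay above all 6 libraries of the other genotypes for 64 members (74.4%), as did 31.3% of all genes, and below them for 2 (2.33%; all genes, 31.6%). The lone library is assumed in this fit to vary as the other genotypes do. Without replicate 2 instead, 57 members were higher, where 16.4% of all genes were called, and the median was 0.84. The count also depended on libraries of the other genotypes: it was 6 without Pax5+/+ replicate 2 and 27 without Pax5+/+ replicate 1 (all genes, 13.2% each), 21 without either Pax5+/- library (13.5%) and 16 without either Pax5R31Q/- library (13.3%). In data simulated for this comparison, 200 of 13370 genes were changed. Limma recovered 0.500% of them at 1.5-fold and 88.5% at 2-fold, and limma-voom recovered 69% and 100%. In the data, 35.9% of all genes were called, which makes the adjusted p less strict. The simulated shares therefore do not carry over to this comparison.

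**Figure D2:**
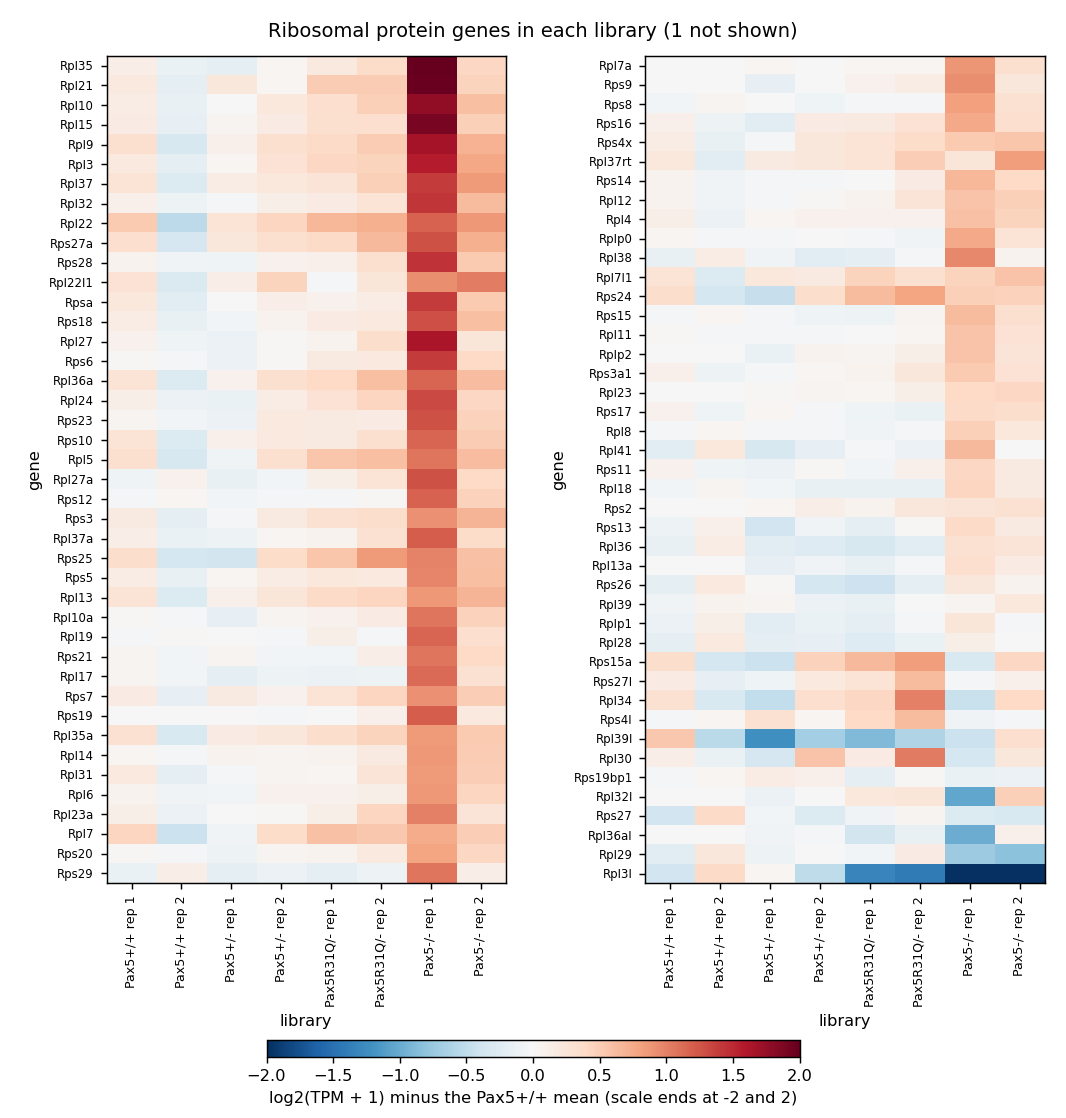
Difference of each member tested (1 is not shown) from its Pax5+/+ mean, in log2(TPM + 1), by library, with the genes ordered by their mean in the Pax5-/- libraries (red, higher; blue, lower; the color scale ends at -2 and 2). Most rows are red in both Pax5-/- libraries and darker in replicate 1, and Rpl3l and Rpl29 at the bottom are blue in both.

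The gene that fell most was Rpl3l, a paralog of Rpl3 known from skeletal and heart muscle, on chromosome 17 (24727826 to 24736143, plus strand, 10 exons, GRCm38.p6). Rpl3l stood at 22.7 and 39.1 TPM in Pax5+/+, 30.7 and 20.6 TPM in Pax5+/-, 11.3 and 10.5 TPM in Pax5R31Q/-, and 2.63 and 3.42 TPM in Pax5-/- cells. Each Pax5R31Q/- library was below the 4 libraries with a wild-type allele, and each Pax5-/- library was below all of them. The difference between Pax5-/- and Pax5+/+ cells was -2.94 ± 0.29 (SE; limma adjusted p = 0.000243), and was -2.80 without replicate 1. Rpl3l was the only member past the study's thresholds for a regulated gene (also over 3-fold and a mean over 5 TPM), which 6.88% of all genes met. They were applied here to limma on TPM with immunoglobulin genes kept, whereas the study used DESeq2 on counts and left those genes out. All of its 50-base windows are unique (100%), its exons overlap no other gene, and neither peak list held a Pax5 peak within 1 kb of its start. Rpl3 itself, the large-subunit protein next to the catalytic center, moved the other way: it stood at 1050 and 806 TPM in Pax5+/+ and at 2746 and 1581 TPM in Pax5-/- cells (1.18 ± 0.26, limma adjusted p = 0.01; 0.78 and adjusted p = 0.0328 without replicate 1). As a share of the summed TPM of the pair, Rpl3l made up 2.11 and 4.63% in Pax5+/+ and 0.0955 and 0.216% in Pax5-/- cells.

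Rpl29, a large-subunit protein at the ribosome surface, was the other member that fell. It was at 297 and 407 TPM in Pax5+/+, 325 and 347 TPM in Pax5+/-, 336 and 388 TPM in Pax5R31Q/-, and 209 and 197 TPM in Pax5-/- cells. Both Pax5-/- libraries lay below all others, and the Pax5+/+ replicates of Rpl29 were the farthest apart. The difference from Pax5+/+ was -0.77 ± 0.16 (limma adjusted p = 0.00817) and -0.81 without replicate 1.

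Rpl22l1, a paralog of Rpl22 that can take its place in the ribosome, rose in both replicates alike. Rpl22l1 stood at 96.2 and 64.2 TPM in Pax5+/+, 85.8 and 108 TPM in Pax5+/-, 76.2 and 92.7 TPM in Pax5R31Q/-, and 150 and 160 TPM in Pax5-/- cells, with a difference of 0.97 ± 0.21 (limma adjusted p = 0.00928; 1.02 without replicate 1). Rpl22, an RNA-binding large-subunit protein known for its role in lymphocyte development, was at 327 and 160 TPM in Pax5+/+ and 519 and 418 TPM in Pax5-/- cells. Its difference of 1.02 passed the test (adjusted p = 0.0304), but not without replicate 1 (0.87, adjusted p = 0.157), and Pax5+/+ replicate 2 was the lowest library for Rpl22.

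**Figure D3:**
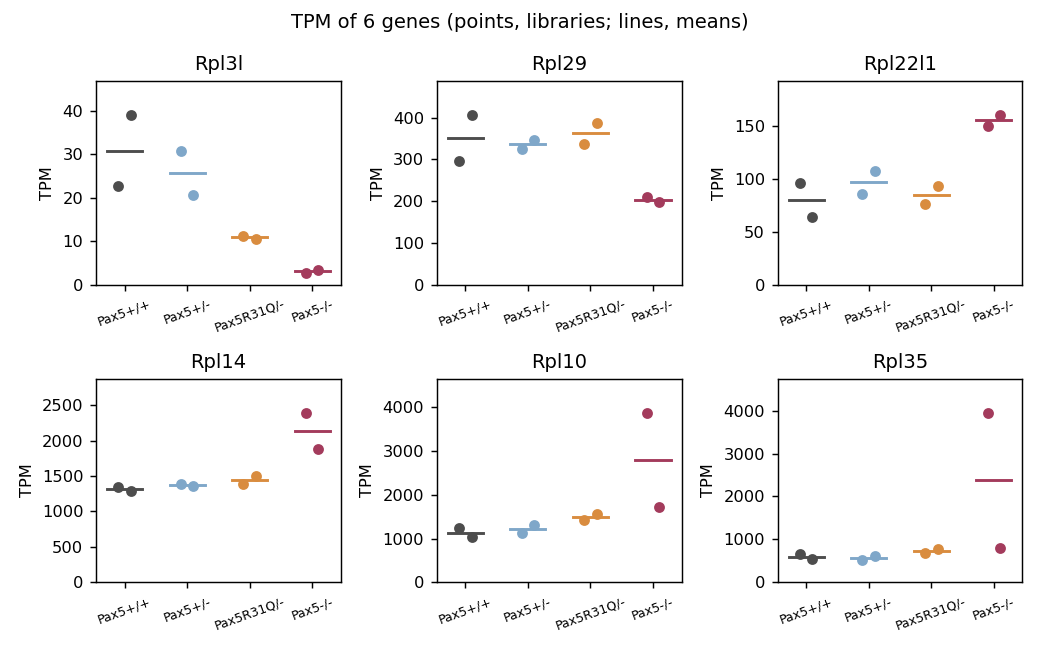
TPM of 6 members by genotype, with each library as a point and the mean as a line, all axes from 0. Rpl3l and Rpl29 are lowest and Rpl22l1 and Rpl14 highest in both Pax5-/- libraries, while the Pax5-/- means of Rpl10 and Rpl35 are drawn up by replicate 1 (3879 against 1721 TPM and 3952 against 796 TPM).

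Several members with the largest fitted differences rested on replicate 1. Rpl35, a large-subunit protein near the exit tunnel for the new chain, had the largest difference, 1.57 ± 0.61, and did not pass (limma adjusted p = 0.0819). It was at 657 and 543 TPM in Pax5+/+, 3952 TPM in Pax5-/- replicate 1 and 796 TPM in replicate 2. Rpl21 (283 and 97 TPM in Pax5-/- against 81.8 and 61.6 TPM in Pax5+/+) behaved in the same way, with an adjusted p of 0.0582. Rpl15 (818 and 305 TPM against 245 and 196 TPM) and Rpl10, a late-joining large-subunit protein (3879 and 1721 TPM against 1251 and 1025 TPM), passed with adjusted p-values of 0.0472 and 0.0275, and of these 4 genes only Rpl10 passed without replicate 1 (0.60, adjusted p = 0.0496). Rpl9 was at 1002 and 644 TPM in Pax5+/+ and 2554 and 1301 TPM in Pax5-/- cells (1.18, adjusted p = 0.0247; 0.70 and adjusted p = 0.111 without replicate 1). Rpl14 and Rpl23 had more even replicates. Rpl14 was at 1350 and 1287 TPM in Pax5+/+ and 2395 and 1879 TPM in Pax5-/- cells (0.69 ± 0.14, adjusted p = 0.00793; 0.51 and adjusted p = 0.0219 without replicate 1). Rpl23, at 1539 TPM in each Pax5+/+ library, was at 2019 and 2054 TPM in the Pax5-/- libraries (0.40 ± 0.11, adjusted p = 0.0227; 0.42 and adjusted p = 0.0369 without replicate 1). Rpl14 and Rpl23 were chosen here after their values were seen.

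The stalk proteins, which recruit the translation factors to the ribosome, had unlike values, a difference between genes that was not tested. Rplp0, the base of the stalk, rose from 2971 and 2835 TPM in Pax5+/+ to 4891 and 3513 TPM in Pax5-/- cells (0.51, limma adjusted p = 0.0483; 0.28 and adjusted p = 0.145 without replicate 1). Rplp2 stood at 3747 and 3674 TPM and at 5532 and 4418 TPM, a difference of 0.41 that did not pass (adjusted p = 0.0733; 0.25 without replicate 1). For Rplp1 the groups overlapped, with 6117 and 7234 TPM in Pax5+/+ and 7846 and 6462 TPM in Pax5-/- cells (0.10 ± 0.16, adjusted p = 0.666; -0.042 without replicate 1). Rpsa, a small-subunit protein also known as the laminin receptor, was at 1219 and 908 TPM and at 2775 and 1517 TPM (0.96, adjusted p = 0.0281; 0.53 and adjusted p = 0.0933 without replicate 1).

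Of the members known for roles outside or early in ribosome assembly, Rpl5 and Rpl11 form with the 5S RNA the particle that restrains Mdm2. Rpl5 was at 307 and 195 TPM in Pax5+/+ and 514 and 374 TPM in Pax5-/- cells (0.84, limma adjusted p = 0.0318). Rpl11 was at 1165 and 1124 TPM and at 1703 and 1395 TPM (0.43, adjusted p = 0.0333). Rps6, the small-subunit substrate of S6 kinase, was at 814 and 781 TPM and at 2093 and 1051 TPM (0.89, adjusted p = 0.0392). Without replicate 1, Rps6 passed (0.40, adjusted p = 0.0432), and Rpl5 and Rpl11 did not (adjusted p = 0.172 and 0.0843). Rps19, which is mutated in Diamond-Blackfan anemia, was at 1133 and 1139 TPM and at 2621 and 1302 TPM, and did not pass (0.70, adjusted p = 0.0888; 0.20 without replicate 1). Rps19bp1, which the naming rule includes although it encodes a binding partner of Rps19 and no ribosomal protein, was at 84.8 and 88.8 TPM in Pax5+/+ and 78.9 and 79.6 TPM in Pax5-/- cells (-0.13 ± 0.11, adjusted p = 0.391; -0.12 without replicate 1).

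The remaining paralogs and gene copies gave a mixed picture. Rpl7l1, a nucleolar relative of Rpl7, was at 94.9 and 64.8 TPM in Pax5+/+ and 107 and 116 TPM in Pax5-/- cells, and did not pass (0.51, adjusted p = 0.0573; 0.56 without replicate 1). Rpl36al, a copy of Rpl36a, was at 578 and 587 TPM in Pax5+/+ but at 293 and 625 TPM in Pax5-/- cells, and Rpl32l, a copy of Rpl32 with 1 exon, was at 202 and 203 TPM and at 97.8 and 283 TPM. Both were thus lower in Pax5-/- replicate 1 than in every other library and higher in replicate 2. The parent gene Rpl32 had the opposite order, with 4958 TPM in replicate 1 and 2874 TPM in replicate 2. Rps27l (180 and 144 TPM against 158 and 173 TPM) and Rps4l, a transcribed pseudogene (20.5 and 21.7 TPM against 20 and 20.8 TPM), had overlapping values; the fitted difference of Rps4l was -0.047 and turned positive under 3 other scalings. Rpl39l stayed at or below 2.41 TPM in every library.

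The gap between the Pax5-/- replicates varied with the gene. It reached 2.31 (log2, replicate 1 minus replicate 2) for Rpl35 and fell to -1.52 for Rpl32l, with a median of 0.37 over the 82 members with a mean of at least 10 TPM, against -0.11 for 1976 other genes with a mean of at least 100 TPM. The gap was larger where fewer windows were unique, with a median of 0.53 for members with under 50% unique windows and 0.27 for the rest, and Spearman's rho over the 82 genes was -0.32, a description across genes that share both libraries. The difference between replicate 2 and the Pax5+/+ mean showed little such relation (rho -0.050). When members with at least 50% unique windows were taken alone, a choice made after seeing the data, 16 of 33 were higher and 2 lower in Pax5-/- than in Pax5+/+ cells (all genes, 16.2 and 19.7%) with a median of 0.51, and the median was 0.41 without replicate 1. Exons of 16 members overlap those of another gene, and whether the counting used strand is not stated.

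**Figure D4:**
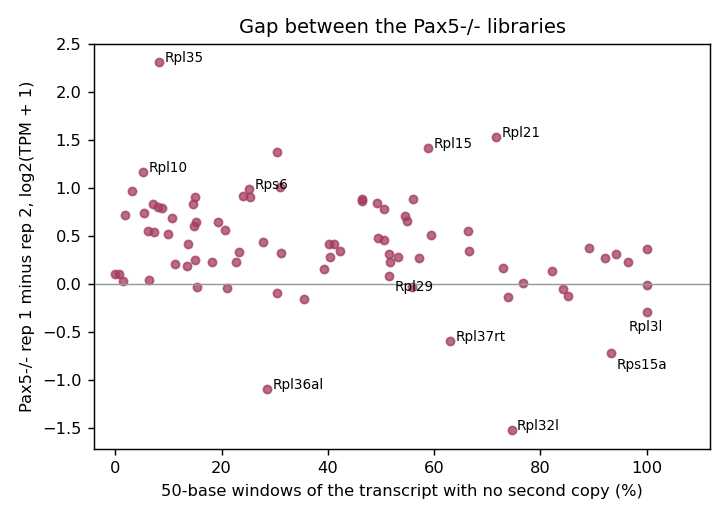
Difference between the 2 Pax5-/- libraries, replicate 1 minus replicate 2 in log2(TPM + 1), against the share of 50-base windows of the transcript with no second exact copy in the genome (%), for the 82 members with a mean of at least 10 TPM. Most points lie above 0, up to 2.31 for Rpl35. The copies Rpl32l, Rpl36al and Rpl37rt lie below it, as do other members, among them Rps15a (-0.72, with 93.2% unique windows).

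The comparison of Pax5R31Q/- with Pax5+/+ cells asked what remains when the mutant protein is the only Pax5. No member was called higher and 1 was lower, while 1.62% of all genes were called higher and 2.55% lower (4.17% in all). No member met the study's thresholds, as 0.856% of all genes did. At an unadjusted p under 0.05 there were 5 members, 4 of them higher, and 18.8% of all genes. This count of members depended on the libraries used and was larger without Pax5+/+ replicate 1. Limma-voom on the recovered reads also called 0 members higher and 1 lower, with 2.34% and 4.14% of all genes. The member that fell was Rpl3l, with a difference of -1.37 ± 0.29 on the log2(TPM + 1) scale (limma adjusted p = 0.0415). Without Pax5+/+ replicate 2, the library with the most Rpl3l, it was -0.99 (adjusted p = 0.220), and the call held without Pax5+/+ replicate 1 (adjusted p = 0.0355) but was lost when any other library was left out (adjusted p up to 0.287). The median over members was 0.15 (all genes, 0.044), and leaving out 1 library moved it between 0.081 (without Pax5R31Q/- replicate 2) and 0.22 (without Pax5+/+ replicate 1), with 0.094 without Pax5+/+ replicate 2. For 46 members (53.5%), both Pax5R31Q/- libraries lay above both Pax5+/+ libraries, a pattern of 34.6% of all genes, and for 11 (12.8%; all genes, 25.0%) both lay below.

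Members with large positive differences in Pax5R31Q/- cells varied among the control libraries too. Rps15a, a small-subunit protein, was at 171 and 105 TPM in Pax5+/+, 99.0 and 186 TPM in Pax5+/-, and 212 and 241 TPM in Pax5R31Q/- cells. Rps24 was at 620 and 382 TPM, 353 and 619 TPM, and 752 and 843 TPM, and Rps25 at 1219 and 742 TPM, 740 and 1229 TPM, and 1393 and 1713 TPM. Rpl34 was at 8.76 and 5.38 TPM, 4.60 and 8.99 TPM, and 9.48 and 14.9 TPM (0.71, limma adjusted p = 0.380). Of the libraries of these 3 genotypes, Pax5+/+ replicate 2 and Pax5+/- replicate 1 were the lowest for all 4 genes. For Rps15a, Rps24 and Rps25, the differences from Pax5+/+ of 0.75, 0.71 and 0.70 did not pass (limma adjusted p = 0.314, 0.251 and 0.281).

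Loss of 1 allele, addressed by Pax5+/- against Pax5+/+, gave no member called in either direction and a median of -0.00122 (all genes, 0.024; -0.061 without Pax5+/+ replicate 2 and 0.076 without replicate 1), where 0.0223% of all genes were called. By limma, 1 member and 6.06% of all genes had an unadjusted p under 0.05, and limma-voom called no member and 0.269% of all genes. The limma count of members at this unadjusted p was larger without Pax5+/+ replicate 1. Pax5+/- lay above Pax5+/+ without overlap for 5 members and below for 9 (5.81 and 10.5%; all genes, 21.1 and 14.9%). This comparison and the 2 others against Pax5+/+ share the same control libraries.

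When the Pax5-/- cells were set against Pax5R31Q/- cells, to see what the mutant protein still does, 24 members were higher and 3 lower, with 14.7% and 19.9% of all genes called (34.6% in all). No member met the study's thresholds, as 5.51% of all genes did. Pax5-/- lay above without overlap for 66 members (76.7%; all genes, 29.4%) and below for 8 (9.30%; all genes, 43.0%). The median was 0.46 (all genes, -0.13). Without Pax5-/- replicate 1, 2 members were higher and 2 lower, with 14.0% and 13.4% of all genes called, and the median was 0.25. The number called higher was 0 without either Pax5R31Q/- library (all genes, 7.37 and 7.20%), 3 and 4 without a Pax5+/- library (11.9% each), 14 without either Pax5+/+ library (15.3%) and 49 without Pax5-/- replicate 2 (15.6%). Rpl3l (-1.57 ± 0.29, limma adjusted p = 0.00532; -1.43 without replicate 1) and Rpl29 (-0.83 ± 0.16, adjusted p = 0.00713; -0.87 without replicate 1) were lower, as was Rps4l, at 28.1 and 33.1 TPM in Pax5R31Q/- and 20 and 20.8 TPM in Pax5-/- cells (-0.56, adjusted p = 0.0240; -0.53 and adjusted p = 0.0667 without replicate 1). Rpl22l1 was higher (0.88 ± 0.21, adjusted p = 0.0160; 0.92 and adjusted p = 0.0629 without replicate 1). Between Pax5R31Q/- and Pax5+/- cells no member was called, with 0.268% of all genes called higher and 0.350% lower (0.618% in all; 0.208% by the study's thresholds). The median was 0.16, and it was 0.080 without Pax5R31Q/- replicate 2, 0.092 without Pax5+/- replicate 1 and 0.22 without Pax5R31Q/- replicate 1. An unadjusted p under 0.05 was found for 2 members and 8.79% of all genes, and limma-voom called no member and 1.45% of all genes. More members had such a p with only these 2 genotypes in the fit, and also without Pax5+/- replicate 2. Pax5R31Q/- lay above Pax5+/- without overlap for 46 members (53.5%; all genes, 29.7%) and below for 6 (6.98%; all genes, 26.0%).

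Pax5 peaks lay at most members' starts. Within 1 kb of an annotated start, 73 of 86 members (84.9%) had a peak in the list of cells with wild-type Pax5 and 75 (87.2%) in the Pax5R31Q/- list, and 69 had one in both. All genes tested had peaks in 66.9 and 71.9%, and 1969 other genes with a mean of at least 100 TPM in 84.5 and 89.0%, so that the members were close to other highly expressed genes. Rpl12, Rpl32, Rpl6 and Rps26 had a peak in the wild-type list alone, and Rpl10, Rpl36, Rpl39, Rpl41, Rpl9 and Rps4x in the Pax5R31Q/- list alone. The 7 members without a peak in either list included Rpl7l1, Rpl3l, Rpl39l, Rps4l and the copies Rpl32l and Rpl37rt. At Rps6, for example, the peaks spanned chr4:86857258-86857596 and chr4:86857093-86857598, over the start shown above. The lists hold no peak heights and each comes from 1 library, so the lists were not tested against each other.

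The other lists of ribosome production are set against all genes tested, of which 16.2% were higher and 19.7% lower in Pax5-/- than in Pax5+/+ cells (17.1 and 15.1% without replicate 1). Among the 78 mitochondrial ribosomal proteins, which serve the separate ribosome of the mitochondrion, 4 were higher and 13 lower in Pax5-/- than in Pax5+/+ cells, with a median of -0.14, and 5 and 7 without replicate 1 (median -0.072). Their share of the TPM total was 0.642 and 0.686% in Pax5-/- and 0.699 to 0.748% in the other libraries. Of 56 ribosome assembly factors, 14 were higher and 2 lower (median 0.22), and 21 and 2 without replicate 1 (median 0.34). The median of that list was 0.23 in Pax5R31Q/- against Pax5+/+ cells, with none called, and -0.089 in Pax5-/- against Pax5R31Q/- cells, with 1 higher and 3 lower. Heatr3 was at 25.1 and 19.9 TPM in Pax5+/+ and 33.6 and 44.8 TPM in Pax5-/- cells (0.77; 0.97 without replicate 1), whereas Brix1 fell from 71.3 and 71.4 TPM to 28.5 and 48.9 TPM (-0.91; -0.54 without replicate 1). Of 20 RNA polymerase I genes, whose enzyme transcribes the ribosomal RNA, 5 were higher and 0 lower (4 and 0 without replicate 1), while the median was -0.017 (0.11 without replicate 1). Polr1b, its second largest subunit, was at 24.7 and 20.4 TPM in Pax5+/+ and 46.8 and 50.6 TPM in Pax5-/- cells (1.08 ± 0.13, limma adjusted p = 0.000757; 1.14 without replicate 1).

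Of 19 translation factors and related genes with TOP mRNAs, 2 were higher and none lower, with a median of 0.12 (3 and 0 without replicate 1, median 0.14). Eef1g, a subunit of the elongation factor complex, rose from 809 and 806 TPM to 1586 and 1329 TPM (0.85; 0.72 without replicate 1). Among the 65 members with a promoter window, the 29 with a pyrimidine run near the start had a median of 0.52 and the 36 without one 0.69 (0.40 and 0.45 without replicate 1). Of the 3 ribosomal proteins outside the naming rule, Rack1 passed (3119 and 2416 TPM against 5382 and 3943 TPM; adjusted p = 0.0205), whereas Fau (1256 and 1330 TPM against 2869 and 1290 TPM; adjusted p = 0.191) did not; no gene of the 3 passed without replicate 1. Of 16 genes of the mTORC1 and Myc list, 1 was higher and 4 lower (median -0.20), and without replicate 1 the counts were 3 and 2 (median -0.089). Myc was at 113 and 182 TPM in Pax5+/+, 185 to 200 TPM in Pax5+/- and Pax5R31Q/-, and 379 and 382 TPM in Pax5-/- cells (1.40 ± 0.20, limma adjusted p = 0.00143; 1.40 and adjusted p = 0.0142 without replicate 1). Mtor fell from 59.1 and 58.3 TPM to 32.8 and 36.6 TPM (-0.74; -0.67 without replicate 1). In Pax5R31Q/- against Pax5+/+ cells, 0 genes of this list were higher and 2 lower, Mtor among them (all genes, 1.62 and 2.55%).

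**Figure D5:**
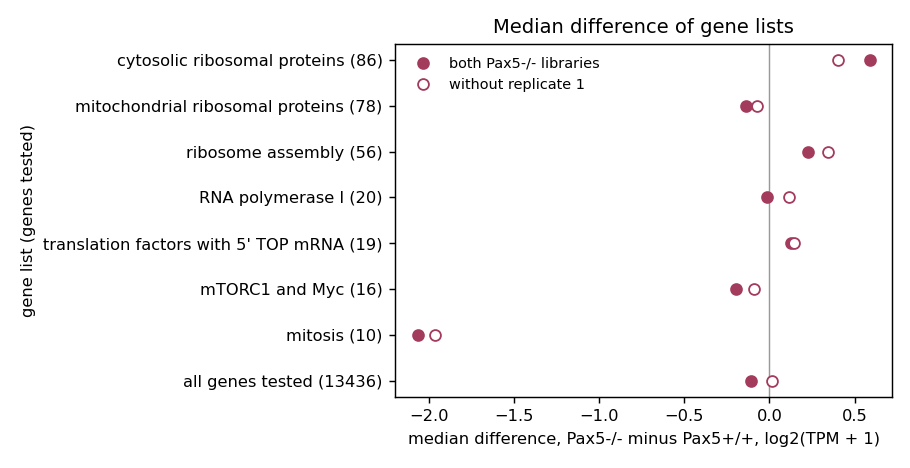
Median difference between Pax5-/- and Pax5+/+ cells in log2(TPM + 1) for the members, 6 other gene lists and all genes tested, with the number of genes tested in brackets (filled, both Pax5-/- libraries; open, without replicate 1). The members lie at 0.59 and 0.40, the mitochondrial ribosomal proteins at -0.14 and -0.072, and the mitosis genes at -2.07 and -1.97.

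Other gene groups moved with the Pax5-/- genotype and are given beside the members, with their part in the result not tested. All 10 mitosis genes were lower in Pax5-/- than in Pax5+/+ cells (median -2.07; 9 of 10 without replicate 1), and their summed level was 520 and 529 TPM, against 1482 to 2640 TPM in the other libraries. The 14 pro-B cell genes summed to 12261 and 11776 TPM in Pax5-/- and 16106 to 19937 TPM in the others. Of these genes, 2 were higher and 8 lower than in Pax5+/+ cells (all genes, 16.2 and 19.7%). The early lymphoid progenitor list summed to 612 and 544 TPM, against 39.1 to 83.9 TPM in the others. Flt3 (385 and 356 TPM) and Ly6a (210 and 177 TPM) made up most of that sum, and of 5 genes tested 3 were higher and 2, Meis1 and Gata2, lower. The T cell list summed to 323 and 316 TPM, against 93.5 to 138 TPM, with Cd3e at or below 0.353 TPM in all libraries. NK and innate lymphoid genes summed to 69.7 and 38.3 TPM against 13.9 to 24.4 TPM, erythroid genes to 43.5 and 15.1 TPM against 79.4 to 136 TPM, and pre-B and later B cell genes to 46.9 and 72.1 TPM against 53.2 to 96.4 TPM. Of 5 pre-B and later B cell genes tested, 4 were lower and 1, Il2ra (26.4 and 50.4 TPM in Pax5-/- cells), was higher than in Pax5+/+ cells.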

How the data were processed

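Transcript levels were used as deposited: per the labels and methods, the authors sequenced poly(A) RNA with 50-base single reads, removed ribosomal RNA reads, aligned to GRCm38/mm10 with STAR (2.4.2), counted uniquely mapping reads on RefSeq genes and deposited TPM. For ChIP-seq, the deposited Pax5 peak lists (Bowtie2 2.3.5.1, MACS, against input) hold positions, and their deposited score column is 0 in every row and was not used. From the TPM, limma (3.58.1) was run here on log2(TPM + 1) with eBayes trend over all 4 genotypes and the 13436 genes with at least 1 TPM in at least 1 library, and genes were called at a Benjamini-Hochberg adjusted p under 0.05. Differences on this scale understate those of low genes. Whole reads were recovered from the TPM steps for all 18206 genes above 0 in at least 2 libraries, giving 21625407 to 34488454 reads per library; these served limma-voom. The test was checked on simulated data. Transcripts, start sites and sequences came from RefSeq (GRCm38.p6); all 89 members matched. Genes named are the paralog pairs, the stalk genes and Rpsa, the 5 largest and 5 smallest differences per comparison, the highest and lowest members, Rpl5, Rpl11, Rps19, Rps6, Rpl22 and Rps19bp1, and of other lists the 3 largest changes. Some single genes are not reported here. Members, lists and rules were chosen with earlier results of these data known. Alternatives covered pseudocount, filter, scaling, fit, threshold and each library left out.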

Additional observations from a re-analysis of the deposited data

How the results depend on the processing

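The members' median in Pax5-/- cells was 0.36 to 0.84 against Pax5+/+ and 0.17 to 0.60 against Pax5R31Q/- over 18 alternatives, of which 7 cannot move it by construction. The number of members called changed. Against Pax5+/+, the 42 higher and 2 lower members became 1 higher with no filter on low TPM (all genes, 7.33%), 1 higher and 1 lower with only the 2 genotypes in the fit (all genes, 8.25 and 9.09%), 24 higher with quantile normalization (all genes, 20.2%), 4 higher at an adjusted p under 0.01 (all genes, 9.90%), and 16 of 33 higher among members with at least 50% unique windows (all genes, 16.2%; added after seeing the data). Leaving out 1 library gave 6 to 57 higher and 2 to 4 lower. Against Pax5R31Q/-, the 24 higher became 0 with no filter (all genes, 6.5%), 2 with only the 2 genotypes (10.6%), 10 with quantile normalization (20.1%), 37 by limma-voom (20.7%), 0 at an adjusted p under 0.01 (8.25%) and 10 of 33 with unique windows (14.7%); leaving out 1 library gave 0 to 49 higher (7.20 to 15.6%) and 1 to 5 lower. For Pax5R31Q/- against Pax5+/+, the 1 lower member (Rpl3l) became 0 with no filter, with only the 2 genotypes and at an adjusted p under 0.01, and leaving out 1 library gave 0 to 2 higher and 0 to 1 lower. The cause was not tested.

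Rpl3l kept its call against Pax5+/+ in Pax5-/- cells in 18 of 18 alternatives (-3.32 to -2.56), and Rpl29 and Rpl22l1 in 17 of 18. Some members that were not called changed sign in Pax5-/- against Pax5+/+ cells: leaving out 1 library gave -1.04 to 0.48 for Rpl32l (adjusted p = 0.0126 at 0.48, without Pax5-/- replicate 1), -0.99 to 0.10 for Rpl36al, -0.042 to 0.24 for Rplp1, -0.68 to 0.10 for Rps27 and -0.12 to 0.20 for Rps27l. Rps4l came to 0.042 with median-ratio scaling, 0.061 with quantile normalization and 0.038 by limma-voom. Leaving out either Pax5-/- library put the share of the TPM total in these cells at 16.1 or 22.4%. Windows of 0.2 and 2.5 kb gave like counts of peaks. No paired analysis was possible because the labels give the libraries no replicate numbers. The replicate numbers used here only name the libraries of a genotype and pair none.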
